A study of Mus musculus with 8 samples.

Results

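Retinoid carriers and retinaldehyde dehydrogenases are the proteins that move vitamin A derivatives between and within cells and turn retinaldehyde into retinoic acid. Retinol travels in blood on retinol-binding protein (Rbp4) and enters cells through the receptor Stra6. Cells oxidise it to retinaldehyde, and Aldh1a1, Aldh1a2 and Aldh1a3 carry out the irreversible step to retinoic acid, which acts on nuclear receptors. Crabp1 and Crabp2 bind retinoic acid in the cytosol, while Rlbp1, also called CRALBP, carries 11-cis retinoids in the pigment epithelium and Müller glia of the eye. In the nervous system retinoic acid made by the meninges and other tissues is known for its role in development, and sensory neurons respond to it with neurite growth.

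The members were the 8 listed genes Rlbp1, Rbp4, Crabp1, Crabp2, Stra6, Aldh1a1, Aldh1a2 and Aldh1a3, each with at least 1 probe set annotated to its symbol alone. They made up 10 of 45037 tested probe sets and 8 of 18193 genes. The list was drawn up because Rlbp1 was higher in transgenic ganglia, so the values of Rlbp1 are a description without a test. The other 7 members were listed for their function.

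RNA came from trigeminal ganglia, where the neurons for touch, temperature and pain of the face lie. C57B/6XCBA mice were used, labelled as adult males. A set of 4 arrays came from mice transgenic for daDREAM, a mutant form of the calcium-binding transcriptional repressor DREAM designed to stay active, with titles that carry the tag tg16, and 4 arrays came from controls of the same background without other labelled treatment. Whether tg16 is a single founder line, which promoter drives the transgene, the animals' exact age and whether ganglia were pooled are not stated in the labels. The arrays are called biological replicates there, so the p-values rest on the spread between these samples alone. The series asked how DREAM alters gene expression in this ganglion. All values below are log2 RMA values, means are given ± SD with n = 4 arrays per group, and differences are daDREAM minus control on the log2 scale. A gene or probe set was called at a limma adjusted p under 0.05.

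Several arrays stood apart. Xist, the RNA of the inactive X chromosome, read 11.51 on daDREAM replicate 4 and 10.20 and 11.72 on control replicates 3 and 4, against 6.10 to 6.49 on the other 5 arrays, although all animals are labelled male. The pituitary hormone gene Gh was brightest on daDREAM replicates 3 and 4 and control replicate 3, and the muscle actin Acta1 on control replicates 1 and 3. The astrocyte filament Gfap was lowest on control replicates 1 and 4. The choroid plexus gene Ttr, which encodes the blood partner of Rbp4, read 14.07 on daDREAM replicate 1 and 11.96 on control replicate 1, against 6.58 to 8.59 elsewhere. The 9 measured sensory neuron markers all lay above a log2 value of 6 and none was called.

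A pair of promoter stretches is printed, from the gene that defined the list, Rlbp1, and from the retinoid gene outside the list that passed the test, the receptor gene Rarb, whose promoter is the textbook site of retinoic acid action. Each is the 250 bases before the RefSeq transcription start, 5′ to 3′ on the gene's strand, from build GRCm38.p6. The Rlbp1 stretch is chr7:79387028-79387277 and the Rarb stretch is chr14:16575477-16575726, both on the minus strand.
Rlbp1: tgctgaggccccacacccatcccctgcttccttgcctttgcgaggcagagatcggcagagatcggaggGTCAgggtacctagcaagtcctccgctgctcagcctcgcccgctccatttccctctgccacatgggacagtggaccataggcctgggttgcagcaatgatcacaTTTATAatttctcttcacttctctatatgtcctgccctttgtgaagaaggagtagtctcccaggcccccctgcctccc
Rarb: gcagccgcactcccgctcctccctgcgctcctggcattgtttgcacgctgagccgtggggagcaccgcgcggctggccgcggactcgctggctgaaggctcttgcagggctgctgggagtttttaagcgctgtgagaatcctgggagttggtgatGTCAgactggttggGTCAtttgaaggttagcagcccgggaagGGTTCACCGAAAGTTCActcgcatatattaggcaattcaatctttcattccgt
In the Rlbp1 stretch the capitals mark GTCA, the core of the element that DREAM is known to bind, at positions -182 to -179, and TATAAA on the opposite strand at -78 to -73. In the Rarb stretch they mark GTCA at -95 and -81 and the retinoic acid response element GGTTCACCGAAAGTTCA at -53 to -37. Positions count back from the start, whose preceding base is -1. The search covered both strands of the same 250 bases in 32851 RefSeq windows. GTCA was present in 80.2% of them and TATAAA in 12.4%, whereas a response element spelled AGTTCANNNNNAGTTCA or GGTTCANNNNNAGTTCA was present in 0.0274%. The form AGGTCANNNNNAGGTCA was present in 0.00913%. Neither form of the response element was in any of the 11 windows of members. Windows were found for 6 of the 8 members, and Crabp2 and Aldh1a3 had none. These letter matches describe the sequence and do not show binding.

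Rlbp1 was the member with the large difference. It read 8.44, 8.26, 8.17 and 8.21 on the daDREAM arrays, against 6.94, 6.93, 6.66 and 6.56 on the control arrays. The groups were separated by 1.23, more than the spread within either group (0.27 in daDREAM and 0.38 in control). The means were 8.27 ± 0.12 in daDREAM and 6.77 ± 0.19 in control ganglia, a difference of 1.50 (SE 0.10), or 2.82-fold. The SD pooled over both groups was 0.16, at percentile 70.1 of all genes. Rlbp1 has a single probe set here (1418310_a_at), so no other probe set measures the same difference. In bulk tissue more cells of a type and more RNA per cell cannot be told apart. The difference was 1.36 without the arrays with Xist signal, 1.54 without those with the most Gh and 1.48 without the controls with the least Gfap.

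**Figure D1:**
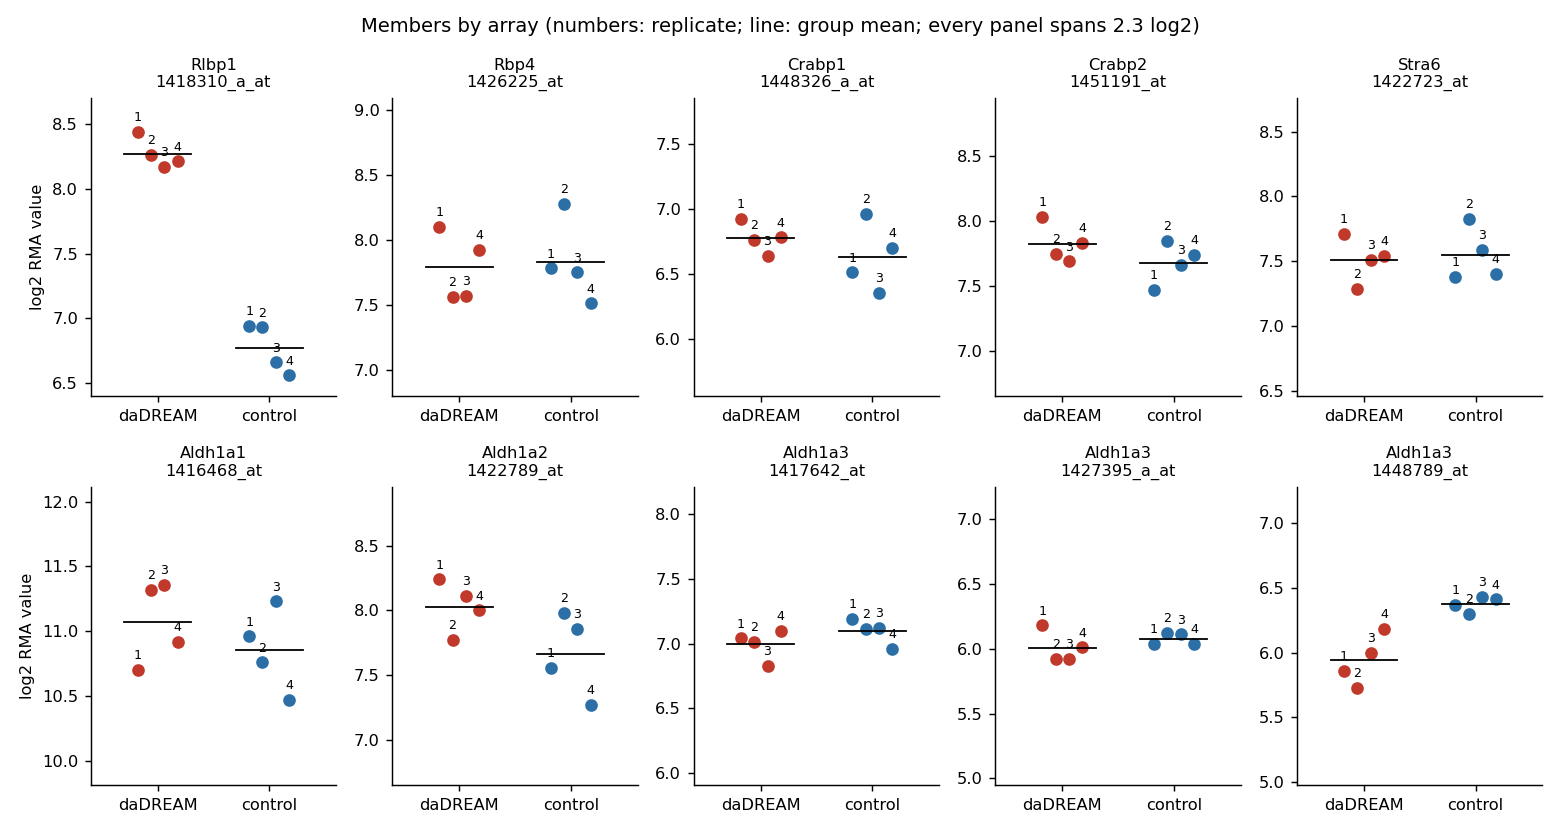
Log2 RMA values of the 10 probe sets on 4 daDREAM and 4 control arrays, 1 panel per probe set, with points numbered by replicate and lines at group means. Only the Rlbp1 panel and the panel of Aldh1a3 probe set 1448789_at have groups that do not overlap, with Rlbp1 at 8.17 to 8.44 in daDREAM and 6.56 to 6.94 in control ganglia.

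None of the 7 measured genes of retinoid storage and the visual cycle was called, beside 2.00% of all genes. Rdh5, the 11-cis retinol dehydrogenase that Rlbp1 supplies, averaged 8.72 ± 0.18 in daDREAM and 8.72 ± 0.16 in control ganglia (limma adjusted p = 0.991). The retinoid isomerase Rpe65 averaged 6.02 ± 0.18 in daDREAM and 6.17 ± 0.16 in control ganglia. Lrat, which esterifies retinol, and the opsin Rgr had means between 5.18 and 5.32 in both groups, below a log2 value of 6 that was taken as dim. Of the 7 storage and visual cycle genes 4 were dim in both groups, and Rpe65 lay close to that value. Of 7 measured retina markers none was called and 1 was above 0. An unadjusted p under 0.05 was found for 1 (Pde6b, lower), beside 18.2% of all genes. The summed signal of the retina markers was 8.81 to 8.95 in daDREAM and 8.88 to 9.14 in control ganglia on the log2 scale. Of these markers 3 were dim in both groups.

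Some astrocyte markers were higher in daDREAM ganglia too. All 9 differences were above 0, with a median of 0.32, and 2 were called, beside 0.984% of all genes called as higher. These were the water channel Aqp4 at 0.76 and the connexin Gjb6 at 0.69 (limma adjusted p = 0.0173 and 0.0289). The summed signal of the 9 was 14.30 to 14.76 in daDREAM and 13.96 to 14.51 in control ganglia, and none was dim. Other marker lists also lay to one side. All 7 oligodendrocyte markers (median difference 0.35), all 8 central neuron markers (0.78) and all 6 pituitary markers were above 0. All 8 muscle markers were below 0. None in these 4 lists was called. Gfap ran from 10.77 to 11.24 on daDREAM arrays and from 8.29 to 10.22 on control arrays, and its difference of 1.585 was not called (limma adjusted p = 0.066). Over control replicates 1 to 4 Gfap read 8.63, 10.20, 10.22 and 8.29, where Rlbp1 read 6.94, 6.93, 6.66 and 6.56. Without the controls with the least Gfap the Rlbp1 difference was 1.48, as given above. The controls kept there still read 10.20 and 10.22 for Gfap, below every daDREAM array. The part of Gfap and of the other markers in the Rlbp1 difference was not tested.

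The profiles most like that of Rlbp1 belonged to other genes with a step of similar height. Likeness was the root-mean-square distance over the 8 arrays after each gene's own mean was subtracted. The nearest was Camk4, a calcium/calmodulin-dependent kinase, at a distance of 0.13, with means of 8.15 in daDREAM and 6.71 in control ganglia. Next came the protease inhibitor gene Serpina1b at 0.17 and Alad, an enzyme of heme synthesis, at 0.19. The zinc finger gene Zfp729a (0.19) and Fam168a (0.20) followed. Serpina1b belongs to a family of near-identical copies and had a dim control mean of 5.55. The distances rest on the same contrast that chose Rlbp1 and are a description.

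None of the genes beside Rlbp1 on chromosome 7 was called. The neighbours were the 5 measured genes on each side in RefSeq order. The nearest on either side were the hydrolase gene Abhd2, which averaged 10.05 in daDREAM and 10.52 in control ganglia (limma adjusted p = 0.0797), and the DNA repair gene Fanci, at 7.39 in daDREAM and 7.48 in control ganglia (adjusted p = 0.716). Differences of the 10 neighbours ran from -0.47 at Abhd2 to 0.305 at Isg20. Over all members none of 80 neighbours was called, beside 2.00% of all genes.

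**Figure D2:**
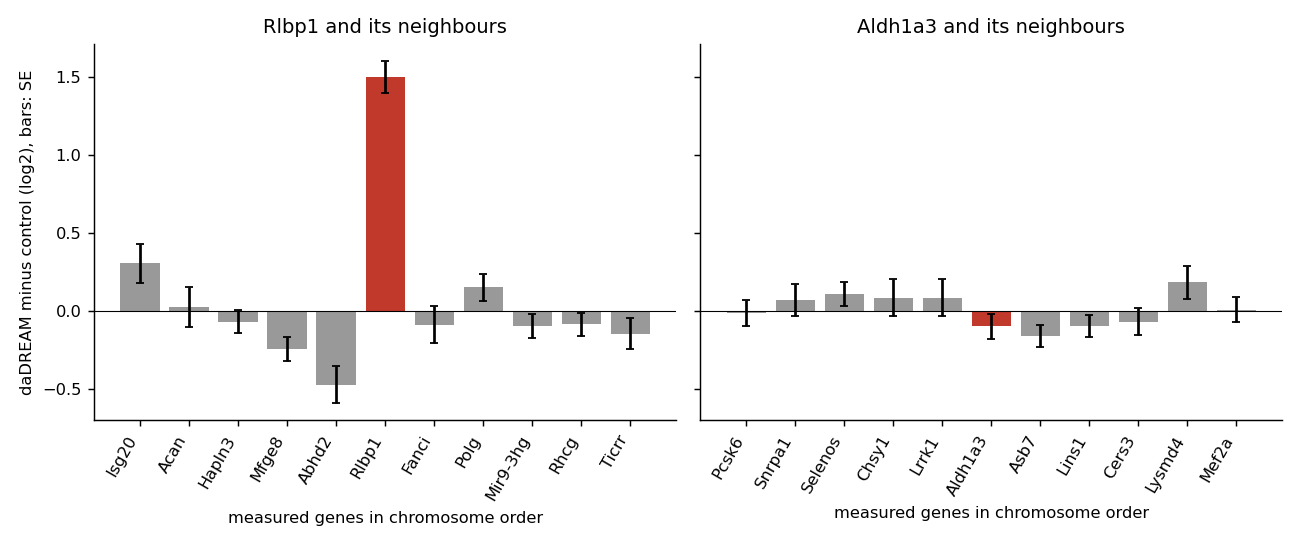
Differences, daDREAM minus control, on the log2 scale with SE bars for Rlbp1 and Aldh1a3 (red) and the 5 measured genes on each side (grey) in chromosome order. Rlbp1 stands at 1.50, while its neighbours lie between -0.47 and 0.305 and those of Aldh1a3 between -0.16 and 0.18.

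Among the 7 other members none was called at the probe set that represents the gene, beside 2.00% of all 18193 genes. An unadjusted p under 0.05 was found for 1 of them, Aldh1a2, beside 18.2% of all genes. Their median difference was 0.145, against 0.00 over all genes. In none of the 7 were the groups free of overlap, beside 10.7% of all genes.

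The carriers of retinol and retinoic acid overlapped between the groups. Rbp4 read 8.10, 7.56, 7.57 and 7.92 on daDREAM arrays, against 7.78, 8.28, 7.75 and 7.51 on control arrays. Control replicate 2 was above every daDREAM array. The difference was -0.04 (SE 0.16, 95% interval -0.40 to 0.32, limma adjusted p = 0.914), so ratios from 0.756-fold to 1.25-fold are inside the interval.

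Crabp1, which is thought to hold retinoic acid in the cytosol, read 6.92, 6.76, 6.64 and 6.78 on daDREAM arrays, against 6.51, 6.96, 6.35 and 6.70 on control arrays. The highest array was a control. The difference was 0.145 (SE 0.12, 95% interval -0.12 to 0.41, limma adjusted p = 0.542). Crabp2, which delivers retinoic acid to its nuclear receptors, read 8.03, 7.75, 7.69 and 7.83 on daDREAM arrays, against 7.47, 7.85, 7.66 and 7.74 on control arrays. Only daDREAM replicate 1 lay above all controls. Its difference was also 0.145 (SE 0.10, 95% interval -0.07 to 0.36, adjusted p = 0.460).

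The receptor Stra6, the cell surface transporter for retinol bound to Rbp4, read 7.71, 7.29, 7.51 and 7.54 on daDREAM arrays, against 7.38, 7.83, 7.59 and 7.40 on control arrays. The group ranges nearly coincided. Its difference was -0.04 (SE 0.12, 95% interval -0.29 to 0.22, limma adjusted p = 0.890).

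Of the dehydrogenases, Aldh1a2 came closest to a call at its representing probe set. It read 8.24, 7.77, 8.11 and 8.00 on daDREAM arrays, against 7.56, 7.98, 7.86 and 7.27 on control arrays. The 3 highest arrays were daDREAM, but daDREAM replicate 2 lay below 2 controls. The difference was 0.36 (SE 0.15, 95% interval 0.03 to 0.69, limma adjusted p = 0.239). It was 0.11 without control replicates 1 and 4, the controls with the least Gfap.

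Aldh1a1 read 10.70, 11.32, 11.36 and 10.92 on daDREAM arrays, against 10.96, 10.76, 11.23 and 10.47 on control arrays. It had the widest spread of the members, with a pooled SD of 0.32 at percentile 97.8 of all genes. The difference was 0.22 (SE 0.18, 95% interval -0.17 to 0.61, limma adjusted p = 0.526). It was 0.0917 without control replicate 4 and 0.345 without either daDREAM replicate 1 or control replicate 3, 0.46 without the arrays with the most Acta1 and 0.08 without the controls with the least Gfap.

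Aldh1a3 has 3 probe sets, and they did not give the same picture. The brightest (1417642_at) read 7.04, 7.01, 6.83 and 7.10 on daDREAM arrays, against 7.19, 7.11, 7.12 and 6.96 on control arrays. The difference was -0.10 (SE 0.08, limma adjusted p = 0.536 over genes). The probe set 1427395_a_at, the lowest of the 3 in its mean over all arrays, averaged 6.01 ± 0.12 in daDREAM and 6.08 ± 0.04 in control ganglia, with an adjusted p of 0.669 over probe sets.

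The remaining Aldh1a3 probe set (1448789_at) read 5.86, 5.73, 6.00 and 6.18 on daDREAM arrays, against 6.37, 6.30, 6.43 and 6.41 on control arrays. All daDREAM arrays were below all controls, as happened at 11.0% of all probe sets in either direction. The difference was -0.435 (SE 0.10, 95% interval -0.65 to -0.22), or 0.74-fold, and it passed over all probe sets (limma adjusted p = 0.0346). This was 1 of 9 member probe sets other than that of Rlbp1, beside 2.74% of all probe sets called in either direction and 1.32% called as lower. The daDREAM mean of 5.94 is dim, and the call was lost without any single array other than daDREAM replicate 4 (adjusted p between 0.0121 and 0.106 over the 8 omissions). It was also lost after renewed quantile normalization (adjusted p = 0.0506) and without the arrays with Xist signal (adjusted p = 0.0621). This probe set and the brightest one are annotated to the same sequence entry.

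**Figure D3:**
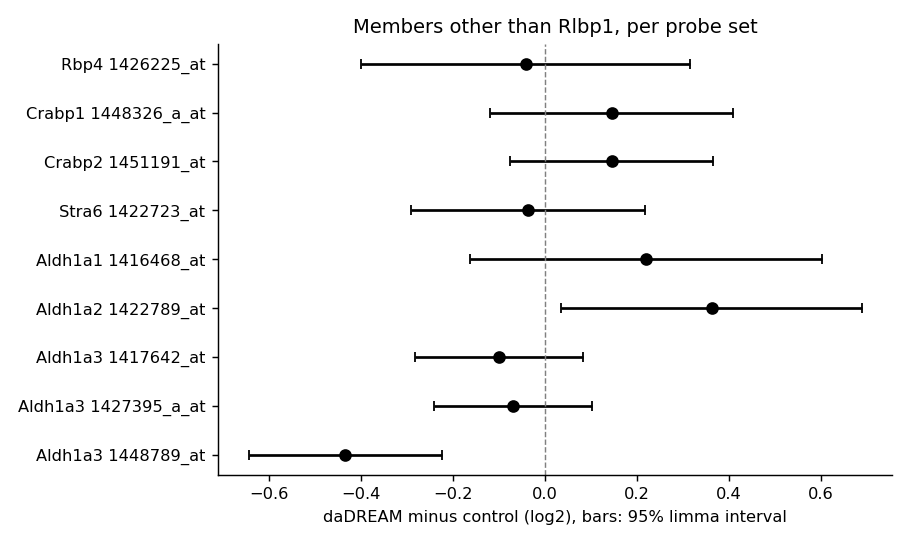
Differences, daDREAM minus control, on the log2 scale with 95% limma intervals for the 9 probe sets of the members other than Rlbp1. The Aldh1a3 probe set 1448789_at lies at -0.435 and Aldh1a2 at 0.36, and the other 7 intervals include 0.

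Most members were highest on the same daDREAM array and on the same control array. Rbp4, Crabp1, Crabp2, Stra6 and Aldh1a2 were each highest on daDREAM replicate 1 among the daDREAM arrays and on control replicate 2 among the control arrays. That held for 5 of 8 members, beside 9.99% of all genes, and no other of the 16 pairings of a daDREAM with a control array was as common among all genes (3.58% to 8.93%). The pattern was noticed in the values and is a description. Rbp4 stood 0.31 above its group mean on daDREAM replicate 1 and 0.45 above it on control replicate 2. Stra6 stood 0.20 and 0.28 above, and Aldh1a2 0.21 and 0.31 above. On the other arrays these members did not all move the same way. On control replicate 3 the deviation was -0.28 for Crabp1 and 0.19 for Aldh1a2.

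Markers of several cell types were highest on the same arrays. Among 8 central neuron markers it was 5, and among 9 of sensory neurons it was 3. Among 13 of meninges and fibroblasts it was 3 (Slc6a13, Foxc1 and Foxd1), beside 9.99% of all genes. None of the astrocyte, oligodendrocyte, Schwann cell or endothelial markers was highest on both. The summed central neuron signal reached 12.67 on daDREAM replicate 1 and 11.61 on control replicate 2, the top of each group. It was 11.46 to 12.67 over daDREAM and 10.58 to 11.61 over control arrays. All 8 markers were above 0, with a median difference of 0.78. An unadjusted p under 0.05 was found for 4 of them, all higher, beside 18.2% of all genes. None of the 8 was called and 1 was dim. The summed meninges and fibroblast signal was 14.22 to 15.01 in daDREAM and 14.56 to 15.01 in control ganglia, and none of the markers was dim. This sum peaked on daDREAM replicate 4 and control replicate 4. It read 14.61 on daDREAM replicate 1 and 14.73 on control replicate 2. Of the 13, 6 were above 0 and 7 below, with a median difference of -0.0075. Called as higher were 2 (Igfbp2 at 0.71 and Slc6a13 at 0.46) and none as lower, beside 0.984% and 1.02% of all genes. An unadjusted p under 0.05 was found for 4 higher and 2 lower, beside 18.2% of all genes. Dcn, a collagen-binding proteoglycan of fibroblasts, had a difference of -0.50 (limma adjusted p = 0.0718). The part of these markers in the members' values was not tested.

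**Figure D4:**
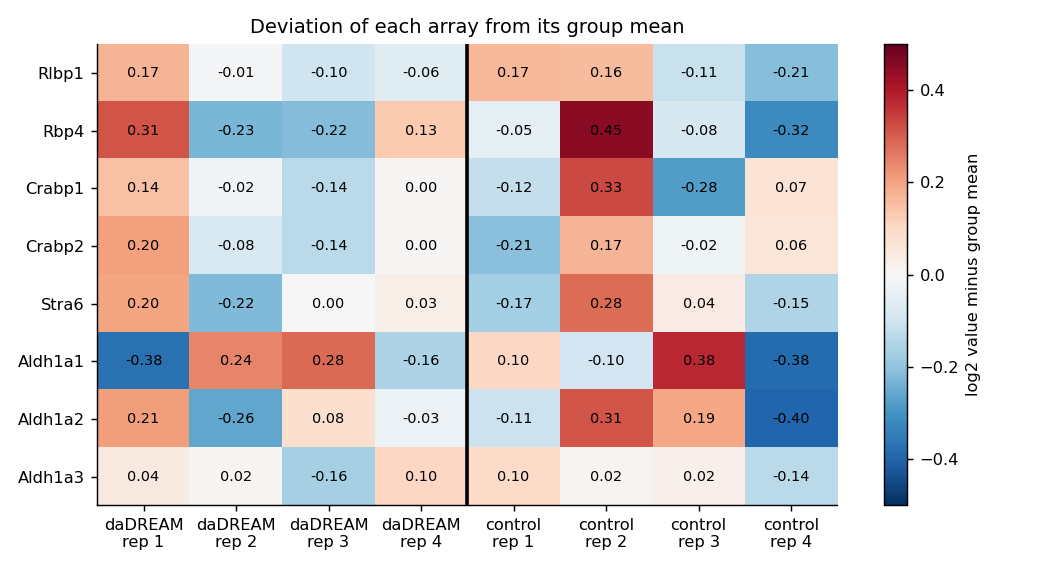
Deviation of each array's log2 value from its group mean for the 8 members, with daDREAM arrays left of the line and control arrays right of it. Rbp4, Crabp1, Crabp2, Stra6 and Aldh1a2 are highest on daDREAM replicate 1 and control replicate 2, whereas Aldh1a1 is lowest of its group on daDREAM replicate 1 (-0.38).

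Aldh1a1 followed another course. It was lowest of its group on daDREAM replicate 1 and control replicate 4 and highest on daDREAM replicate 3 and control replicate 3. Its range over the 8 arrays was 0.89, and like the other members except Rlbp1 it stayed under the range of 1 set for naming similar genes. After its values were seen, the potassium channel gene Kcnj10, known from satellite glia and astrocytes, was found at a distance of 0.08. It was the 4th nearest of all named genes, after Tril, Chst1 and Sik3. Kcnj10 read 10.05, 10.57, 10.79 and 10.44 on daDREAM arrays, against 10.30, 10.14, 10.54 and 9.91 on control arrays. The arrays with its highest and lowest values in each group were those of Aldh1a1. Fabp7, another satellite glia marker, went the other way on some of these arrays. It was highest of its group on daDREAM replicate 1 (13.40) and lowest on control replicate 3 (12.45). Of 7 measured satellite glia markers, 3 were highest of their group on daDREAM replicate 1, as was 1 of 9 astrocyte markers. The summed satellite glia signal was lowest among controls on replicate 3 (15.28), where Aldh1a1 was highest. The summed astrocyte signal had its highest and lowest values in each group on the same arrays as Aldh1a1. What lies behind the likeness was not tested.

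In the rest of the retinoid pathway a single gene was called. The list held 41 analysed genes. Of the 41, 1 was called as higher and none as lower, beside 0.984% and 1.02% of all genes. Their median difference was -0.07, 14 were above 0 and 27 below. An unadjusted p under 0.05 was found for 8 of the 41, 3 higher and 5 lower, beside 18.2% of all genes. On the list 11 were dim in both groups, beside 3384 of all 18193 genes.

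The called gene was Rarb, the retinoic acid receptor whose promoter is printed above. It read 7.72, 7.70, 7.66 and 7.77 on daDREAM arrays, against 7.50, 7.40, 7.33 and 7.22 on control arrays. All daDREAM arrays were above all controls. Groups without overlap, in either direction, were found for 5 of the 41 genes, beside 10.7% of all genes. Rarb rose by 0.35 (SE 0.08), or 1.27-fold, with a limma adjusted p of 0.0399. It has a single probe set. The size lay between 0.24 and 0.40 over all alternatives, but the call was lost without any single array other than control replicate 1, with adjusted p up to 0.115. The adjusted p was 0.0534 with an intensity trend in the variance prior, 0.245 without the arrays with Xist signal, 0.311 without those with the most Gh, 0.104 without those with the most Acta1 and 0.0694 without the controls with the least Gfap. The other 5 receptors did not pass. Rarg had the next difference above 0, at 0.11, and Rxrg had the largest below 0, at -0.155.

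The genes of the target list did not pass and differed in sign. Rarb, the called gene above, is itself a known target of retinoic acid but was listed with the receptors. Of 6 measured on the target list, 2 were above 0 and 4 below. An unadjusted p under 0.05 was found for 1 higher and 3 lower, beside 18.2% of all genes. Nav2, a neuron navigator protein first described as induced by retinoic acid, had a difference of 0.31 at its brightest probe set (limma adjusted p = 0.0661), while another of its 8 probe sets had one of -0.275 (adjusted p = 0.132 over probe sets). Rarres1, a retinoic acid receptor responder, averaged 10.00 ± 0.17 in daDREAM and 10.38 ± 0.21 in control ganglia (adjusted p = 0.132). Rarres2 had a difference of -0.31 (adjusted p = 0.241). The homeobox gene Cdx1 was dim, with means of 5.18 in daDREAM and 5.385 in control ganglia. Cyp26a1 and Cyp26b1, which degrade retinoic acid and whose transcription it induces, had differences of -0.165 (adjusted p = 0.497) and -0.03 (adjusted p = 0.865).

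Of the enzymes around the members, none of 14 that interconvert retinol, retinaldehyde and retinoic acid was called, beside 2.00% of all genes. The differences of these 14 ran from -0.17 at Adh7 to 0.185 at Dhrs4. Rdh10, which supplies retinaldehyde to the Aldh1a enzymes in the embryo, averaged 8.30 ± 0.08 in daDREAM and 8.39 ± 0.16 in control ganglia. Dgat1, which can esterify retinol, averaged 8.85 ± 0.09 in daDREAM and 8.57 ± 0.15 in control ganglia (limma adjusted p = 0.142). Stra6l, a relative of Stra6 that binds Rbp4, was dim at 4.88 in daDREAM and 5.07 in control ganglia. Ttr differed by 1.37 with an SE of 1.42 (limma adjusted p = 0.635), the largest difference on the list and the largest error. Without daDREAM replicate 1 the Ttr difference was -0.11.

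**Figure D5:**
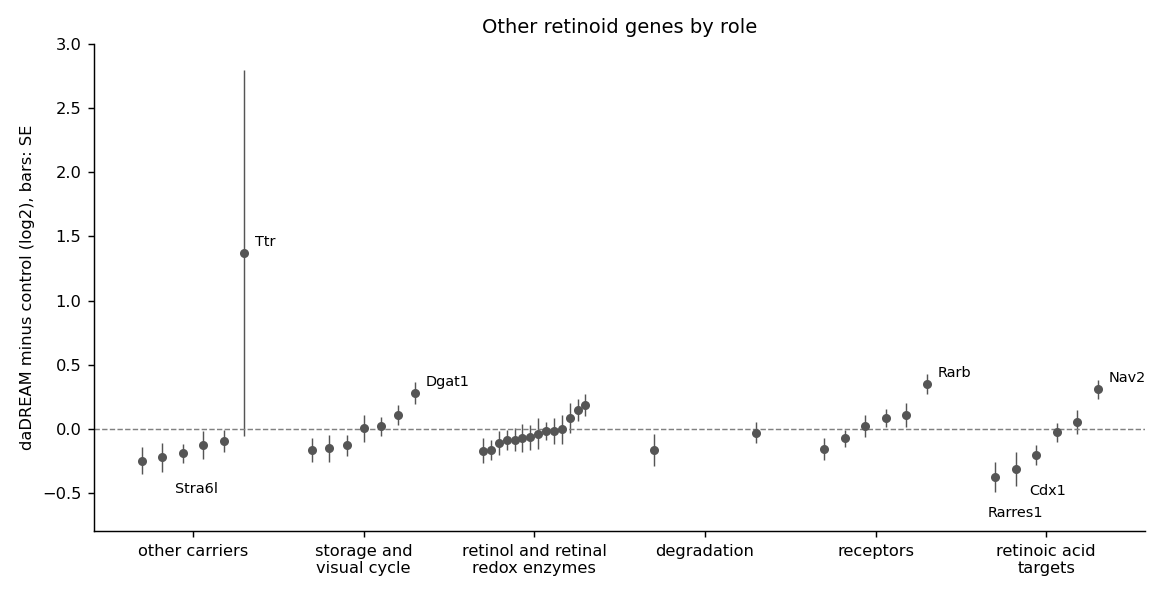
Differences, daDREAM minus control, on the log2 scale with SE bars for the 41 other measured retinoid genes, grouped by role. Rarb at 0.35 is the called gene, and Ttr at 1.37 has an SE of 1.42.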

How the data were processed

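Trigeminal ganglion RNA was hybridised to 8 Affymetrix Mouse Genome arrays. The deposited log2 expression values were RMA values that the authors computed with the affy package (tools named per the submitters' processing notes). That method corrects background, equalises the distributions of all arrays by quantiles and summarises each probe set, so a shift shared by most genes is removed. Versions and a genome build were not stated in the labels. Values ran from 3.39 to 14.94, with array medians from 7.09 to 7.13, and no arrays were identical. The number of arrays limits the precision.

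Of 45101 probe sets, 64 Affymetrix controls were left out. For each gene the brightest probe set, by its mean over all arrays, was taken among those that the platform annotation gives a single symbol. limma 3.58.1 in R 4.3.3 (lmFit, eBayes, group as the only term, two-sided) was run on the deposited log2 values over 18193 genes and over 45037 probe sets, with Benjamini-Hochberg adjustment over each table. It was tested on simulated data. Gene order and promoter letters came from RefSeq tables of GRCm38.p6, in which 18031 genes were placed. Figures were drawn with matplotlib 3.10.9.

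The members and lists were chosen with earlier results of these data known. Named genes were the members, the called or otherwise 6 smallest-p genes of the other retinoid list, the 5 profiles nearest to Rlbp1 (3 for other members with a range of at least 1, predicted genes passed over), called neighbours, and Xist, Gh, Acta1, Gfap, Aqp4, Ttr and Dcn. Further genes were named after their values were seen. Dcn read 12.89 ± 0.28 in daDREAM and 13.39 ± 0.11 in control ganglia and was not called. The remaining marker lists had 0 called genes among satellite glia (7), Schwann cells (5), oligodendrocytes (7), choroid plexus (7), macrophages (6), pituitary (6) and muscle (8). They had 1, Cldn5, higher among endothelium (7), beside 0.984% of all genes called as higher. Alternatives were the replicate block, normalization, a filter at a mean of 6, the probe set rule, the variance prior, array weights and leaving out arrays.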

Additional observations from a re-analysis of the deposited data

Results flagged for a closer look

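Within a group of 4 arrays, 4 of 60 tested groups had an array far from the other 3, by a rule that chance meets in about 1 of 20 groups. None was a member. Ttr was high at 14.07 on daDREAM replicate 1, where the other daDREAM arrays read 7.51 to 8.59, and at 11.96 on control replicate 1, where the other controls read 6.58 to 7.49. Xist was high at 11.51 on daDREAM replicate 4, against 6.10 to 6.43 on the other daDREAM arrays. Cdx1 read 5.03 on daDREAM replicate 1 and 5.23 on each of the other 3, a dim gene with a small range.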

How the results depend on the processing

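The Rlbp1 difference kept its direction and moved by less than its SD under all 20 alternatives, between 1.355 and 1.55. The replicate block, the filter, the probe set rules and the variance prior could not move it and left it at 1.4975. Rlbp1 was chosen for its rise on these same arrays, so this is a description. Of the other 7 members 0 were called under 19 of 20 alternatives, leave-one-out included, and 1 (Aldh1a3, -0.435) with the most variable probe set of a gene. The single called member probe set became 0 after renewed quantile normalization, with 1 probe set a gene adjusted over genes, and without the arrays with Xist signal, the most Gh, the most Acta1 or the least Gfap, and was 0 to 1 when each array was left out. Apart from the adjustment over genes, the alternatives at probe set level, and those of Rarb and Ttr as single genes, were chosen after seeing the data. Of the other retinoid genes 2 were called with the replicate block (Rarb and Ttr), 0 with an intensity trend, 0 without each of those sets of arrays, and 0 to 1 when each array was left out. Some uncalled differences turned sign: Crabp1 to -0.055 without the arrays with the most Acta1, Rbp4 between -0.15 and 0.11 and Stra6 between -0.10 and 0.056 when each array was left out, and Ttr between -0.11 and 2.61, the lowest without daDREAM replicate 1. Over all genes 364 calls became 672 with the replicate block, 697 with the most variable probe set, 213 without the arrays with Xist signal, 98 without those with the most Gh, 171 without those with the most Acta1, 227 without those with the least Gfap, and 229 to 349 when each array was left out. Fewer arrays enter the fits that leave arrays out; other causes were not tested. Signal near background limits what could be seen, as for 2 of the 3 Aldh1a3 probe sets, whose group means lie between 5.94 and 6.38. The replicate numbers are not said to mark a shared animal, litter or day. Deviations from the group means correlated at 0.209, 0.006, 0.331 and 0.36 between arrays of the same number and at -0.282 to 0.312 between arrays of different numbers. Arrays 3 and 4 of daDREAM correlated best with the control of their own number and arrays 1 and 2 did not. Since 1 of the 4 pairs stayed under 0.1, the numbers were not taken to pair the samples. The adjusted p of Ttr was 0.635 without the replicate block and 0.004 with it.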
